A study of Mus musculus with 36 samples.

Results

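Hepatic stellate cells taken 12 h after diphtheria toxin (DT) were compared with stellate cells of the WT group, by bulk RNA sequencing of mouse liver. The sample titles alone chose the libraries: 4 at 12 h and 4 WT, 8 of the 36 libraries of the series. In the 12 h group the toxin was given to deplete Kupffer cells, which are macrophages that line the liver sinusoids, and the cells were collected 12 h later. The WT group is described in the series as PBS mice. Both groups are C57BL/6, and the labels name no transgene, sex or age for either. No group of the series received the toxin with its Kupffer cells in place, so the toxin, the death of the Kupffer cells and their absence cannot be told apart. The labels do not say that the 4 libraries of a group came from separate mice, so the p-values measure the spread between these libraries, which may be technical. In these bulk samples, fewer cells of a type and less RNA per cell cannot be told apart either. The remaining libraries hold stellate cells at 36 h after the toxin, and sinusoidal endothelial cells (LSECs) and hepatocytes at the same times.

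Stellate cells are the pericytes of the liver sinusoid. They lie between hepatocytes and the sinusoidal endothelium, store vitamin A as retinyl esters, contract around the sinusoid in answer to vasoactive ligands, and make much of the pericellular matrix. After injury they can become myofibroblasts that secrete fibrillar collagen, and in the normal liver they touch the Kupffer cells.

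Depth was 25731066 to 28930856 counted reads at 12 h, against 25935283 to 31734631 in WT. Of 12676 genes tested with edgeR's quasi-likelihood (QL) test, 2150 (17%) rose and 1910 (15.1%) fell at a Benjamini-Hochberg adjusted p under 0.05, so 32% of tested genes were called. By at least 2-fold, 5.4% rose and 4.98% fell, and the median log2 fold change over all genes tested was 0.01. All 12 h libraries lay above all WT libraries in 15.6% of tested genes and below them in 15%. These shares are the background against which each gene group is read below. Apart from a core list, genes were as a rule named below only where the groups did not overlap. Lack of overlap in a named gene is thus no further support for it. Levels are CPM, a gene's counts scaled to equal library sizes, errors on log2 fold changes are standard errors, and p-values are adjusted over all genes tested. Replicate 3 stood apart among the 12 h libraries. It lay at 55.5 on the first principal component, which held 61.3% of the variance, and the other 12 h libraries at 17.2 to 31. It was the highest 12 h library in 3737 of the 12676 tested genes and the lowest in 3857. An even split between the 4 libraries would give 1 in 4 for each. Where its removal, or that of another library, moved a count by over 1.5 times, the count without it is given. Summed stellate cell markers were at 51207 to 75603 CPM at 12 h, against 79535 to 104371 CPM in WT, with replicate 3 lowest. Of 20 tested markers 7 fell and 3 rose. The largest parts of the sum were Ecm1 and Dcn, neither of which passed the test. Ecm1 was at 23782 to 30831 CPM at 12 h, against 27275 to 41622 CPM in WT. Dcn was at 10288 to 17602 CPM at 12 h, against 18369 to 24753 CPM in WT. Sinusoidal endothelial markers summed to 9664 to 13786 CPM at 12 h, against 13977 to 15052 CPM in WT. Nearly all of it was Plvap, which did not pass the test (8468 to 12889 CPM at 12 h, against 13254 to 14297 CPM in WT). Of 20 tested members 2 rose and 3 fell. Pecam1, Cdh5 and Lyve1 were at no more than 1.89 CPM in every 12 h and WT library, and Bmp2 and Gata4 at 209 CPM or more. Hepatocyte markers summed to 499.9 to 1117 CPM at 12 h, against 427 to 612 CPM in WT. Of 18 tested 4 rose and 0 fell, or 1 fell without 12 h replicate 2, with a median log2 fold change of 0.06, and those that rose were the fibrinogen genes Fga, Fgb and Fgg and the hemopexin gene Hpx, all coding for acute-phase plasma proteins. Monocyte and neutrophil markers summed to 509 to 1081 CPM at 12 h, against 230.4 to 321 CPM in WT, nearly all of it Plac8 (507 to 1076 CPM at 12 h, against 228 to 317 CPM in WT). The other tested member, Lyz2, fell (0.653 to 1.99 CPM at 12 h, against 2.12 to 6.23 CPM in WT), a call lost without WT replicate 3 or 12 h replicate 2, 3 or 4, and S100a8, S100a9, Ccr2 and Ly6c2 were at or near 0. Kupffer cell markers other than the C1q genes and Fcna, nearly all of it Slc40a1, summed to 133 to 486 CPM at 12 h, against 554 to 866 CPM in WT. Of 11 tested members of the full list 8 fell and 0 rose, with a median log2 fold change of -3.34. Vsig4 was at 0 to 0.0376 CPM at 12 h, against 0.730 to 4.44 CPM in WT. Cd5l was at 0 to 0.113 CPM at 12 h, against 0.830 to 6.11 CPM in WT. Fcna, Csf1r and Cd68 did not pass the test. Immediate early and heat shock genes, which also rise when tissue is dissociated, summed to 21875, 11072, 10215 and 26643 CPM in 12 h replicates 1 to 4, against 5817, 14688, 4829 and 4616 CPM in WT replicates 1 to 4. The part these shifts have in the results below was not tested.

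**Figure D1:**
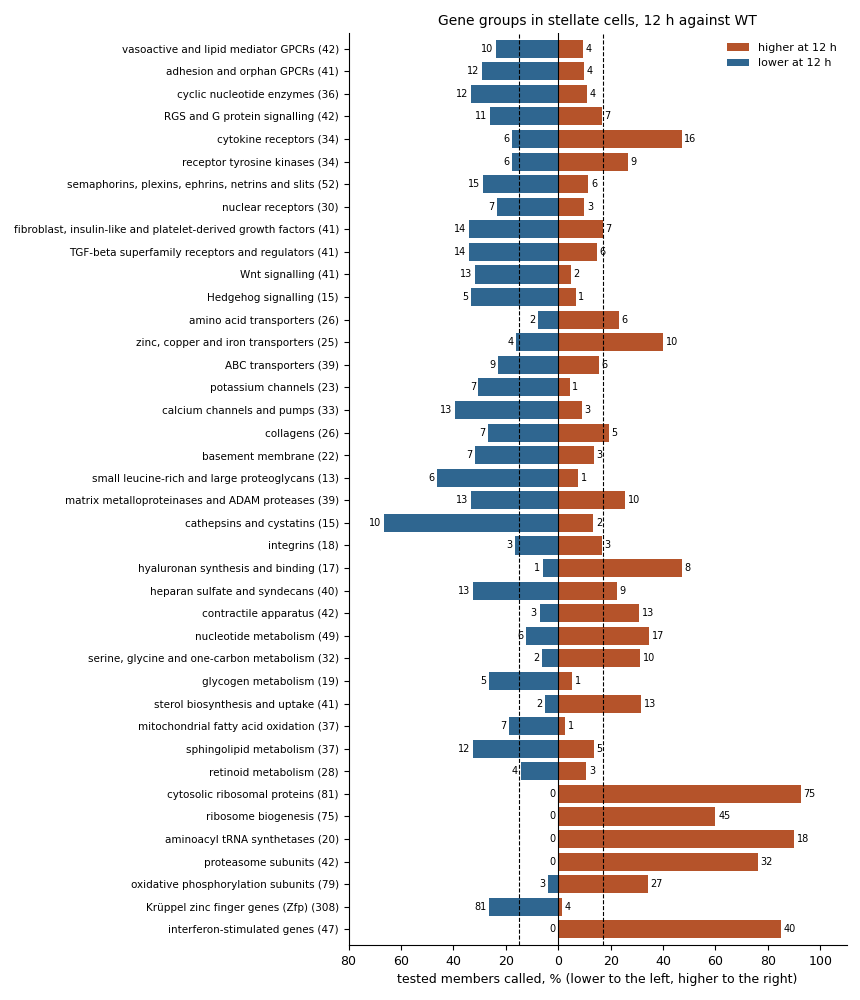
Share of the tested members of 40 gene groups that rose (right) or fell (left) in stellate cells at 12 h against WT, in percent, edgeR QL test, adjusted p under 0.05. Numbers beside the bars are members called, the number in brackets is members tested, and dashed lines mark the shares of all genes tested, 17% higher and 15.1% lower.

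Receptors through which stellate cells read vasoactive signals fell more often than they rose, and most did not pass the test. Among receptors for vasoactive peptides, lipid mediators and nucleotides, 4 of 42 tested members rose and 10 fell, with a median log2 fold change of -0.34. In either direction 33.3% were called, against 32% of all genes tested. Vipr1, the receptor for vasoactive intestinal peptide, was at 1429, 1766, 825 and 1719.7 CPM in the 12 h libraries, against 5224, 5398, 4832 and 5069 CPM in WT (log2 fold change -1.84 ± 0.25, adjusted p = 0.000183, edgeR QL test). Every 12 h library lay below every WT library, and replicate 3 was lowest. Ptger3, a prostaglandin E2 receptor that lowers cyclic AMP, was at 5.18, 6.42, 2.82 and 13.2 CPM in the 12 h libraries, against 15.5, 35.7, 41 and 39.8 CPM in WT (log2 fold change -2.25 ± 0.39, adjusted p = 0.000977). The groups did not overlap, although 12 h replicate 4 came close to WT replicate 1. Npr3, the clearance receptor for natriuretic peptides, was at 82.3, 110.5, 55.2 and 91.7 CPM in the 12 h libraries, against 218, 196, 159 and 150.5 CPM in WT (log2 fold change -1.09 ± 0.20, adjusted p = 0.00154). Npr2, the guanylyl cyclase receptor for C-type natriuretic peptide, also fell (-0.93 ± 0.14). Sucnr1, the succinate receptor, and Cysltr1, a cysteinyl leukotriene receptor, fell by about the same amount (-1.03 ± 0.15 and -1.18 ± 0.17). The opposite direction was taken by Ptgir, the prostacyclin receptor, which raises cyclic AMP. It was at 75.3, 79.5, 97.4 and 83.9 CPM in the 12 h libraries, against 10.02, 13.4, 9.30 and 8.66 CPM in WT, an 8.11-fold rise with all 4 libraries of each group close together (adjusted p = 9.42e-07, edgeR QL test). P2ry2, a receptor for extracellular ATP and UTP, also rose (1.26 ± 0.23). The endothelin receptors and the angiotensin receptor, through which contraction is classically driven, did not pass the test. Ednrb was at 2169 to 2545 CPM at 12 h, against 2397 to 2931 CPM in WT (-0.21 ± 0.12), Ednra at 791 to 1146 CPM at 12 h, against 786 to 920.1 CPM in WT (0.14 ± 0.13), and Agtr1a at 793 to 1123 CPM at 12 h, against 973 to 1181 CPM in WT (-0.18 ± 0.13), all with overlapping groups.

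A pair of peptide hormone receptors outside the gene groups showed the same direction as Vipr1. Gcgr, the glucagon receptor, was at 43.1, 36.1, 26.3 and 58.2 CPM in the 12 h libraries, against 139, 154, 209 and 193 CPM in WT (log2 fold change -2.09 ± 0.22, adjusted p = 4.3e-05, edgeR QL test). Adcyap1r1, the receptor for pituitary adenylate cyclase-activating peptide, was at 33.9, 47.3, 52.5 and 59.6 CPM in the 12 h libraries, against 167, 147, 202 and 233 CPM in WT (log2 fold change -1.95 ± 0.18, adjusted p = 2.17e-05). In neither gene did the groups overlap. Adhesion and orphan receptors had 4 members higher and 12 lower of 41 tested, and the number higher was 7 without the filter on low counts. Adgrd1, an adhesion receptor coupled to cyclic AMP production, fell to 5.90, 7.03, 4.58 and 6.57 CPM in the 12 h libraries, against 27.7, 22.7, 32.2 and 34 CPM in WT (log2 fold change -2.27 ± 0.18, adjusted p = 9.57e-06). Gpr182, an atypical chemokine receptor better known from the sinusoidal endothelium, rose (0.84 ± 0.20), and is 1 of the endothelial markers counted above.

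The enzymes downstream of these receptors moved as well. Of 36 tested adenylyl and guanylyl cyclases, phosphodiesterases and cyclic nucleotide-dependent kinases, 4 rose and 12 fell (median log2 fold change -0.23), and 2 rose without WT replicate 3 or 12 h replicate 3. Adcy5, an adenylyl cyclase inhibited by calcium, was at 40.9, 71.9, 55.6 and 87.7 CPM in the 12 h libraries, against 189, 265, 187 and 196 CPM in WT (log2 fold change -1.71 ± 0.20, adjusted p = 9.4e-05, edgeR QL test). Gucy1a2, a subunit of the nitric oxide receptor guanylyl cyclase, was at 43.5, 45.7, 11.4 and 27.8 CPM in the 12 h libraries, against 74.7, 97.9, 97 and 87.2 CPM in WT (log2 fold change -1.47 ± 0.31, adjusted p = 0.00325). Pde5a, which breaks down cyclic GMP, also fell (-1.14 ± 0.19). The cyclic AMP phosphodiesterases split. Pde4c fell to 2.86, 2.99, 3.23 and 2.40 CPM in the 12 h libraries, against 14.6, 7.98, 12.1 and 10.4 CPM in WT. Pde4b rose to 255, 180.3, 266 and 183 CPM in the 12 h libraries, against 102, 78, 100.1 and 176 CPM in WT, with the highest WT library just under the lowest 12 h library. Pkia, an inhibitor of protein kinase A, fell (-1.09 ± 0.19). Among G protein subunits, RGS proteins and receptor kinases, 7 of 42 rose and 11 fell, including the gamma subunit gene Gng2 (-1.22 ± 0.14) and the receptor kinase gene Adrbk2 (-1.22 ± 0.18). Nos1, neuronal nitric oxide synthase, fell to 1.63, 3.33, 1.39 and 2.32 CPM at 12 h, against 9.02, 8.93, 10.2 and 9.75 CPM in WT (log2 fold change -2.12 ± 0.23, adjusted p = 5.89e-05).

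Cytokine receptors rose more often than they fell. Here 16 of 34 tested members rose and 6 fell. Osmr, the signalling chain for oncostatin M, was at 273, 176, 252 and 155 CPM in the 12 h libraries, against 58.5, 77.3, 54.4 and 55.8 CPM in WT (log2 fold change 1.80 ± 0.20, adjusted p = 6.83e-05, edgeR QL test), and the WT values were tight. Il2rg, the common gamma chain, was at 48.5, 33.2, 134 and 61 CPM in the 12 h libraries, against 2.46, 6.66, 5.85 and 4.31 CPM in WT (log2 fold change 3.84 ± 0.58, adjusted p = 0.00037), with replicate 3 far above the other 12 h libraries. Ifngr1, the ligand-binding chain of the interferon gamma receptor, was at 328, 252, 314 and 311 CPM in the 12 h libraries, against 154, 147, 158 and 160.2 CPM in WT, a change of 0.96 ± 0.11 with no overlap. Il17ra and Il27ra, receptor chains for interleukin 17 and interleukin 27, rose by 1.37 ± 0.28 and 1.23 ± 0.23. Of the receptors that fell, Epor, the erythropoietin receptor, was at 43.7, 74.4, 42 and 99.8 CPM in the 12 h libraries, against 199, 177, 225 and 217 CPM in WT (log2 fold change -1.65 ± 0.23, adjusted p = 0.000232). Replicates 1 and 3 were the lowest and replicate 4 the highest of the 12 h libraries. Prlr, the prolactin receptor, and Il10ra, a chain of the interleukin 10 receptor, fell, with log2 fold changes of -1.69 and -1.83.

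Receptor tyrosine kinases were mixed, 9 of 34 higher and 6 lower. Axl, which binds Gas6 and so bridges cells to exposed phosphatidylserine, was at 901, 837, 1835 and 969.6 CPM in the 12 h libraries, against 415, 359.8, 407 and 429 CPM in WT (log2 fold change 1.5 ± 0.26, adjusted p = 0.00104, edgeR QL test). Replicate 3 was the highest, and no 12 h library reached down to the WT range. Egfr, the epidermal growth factor receptor, was at 141, 109, 130.3 and 81 CPM in the 12 h libraries, against 67, 65.1, 55.7 and 56.6 CPM in WT (log2 fold change 0.92 ± 0.15, adjusted p = 0.000562). Ddr1, a collagen receptor, and Pdgfrb, the receptor for platelet-derived growth factor B and a marker of stellate cells, rose by 0.79 ± 0.12 and 0.50 ± 0.13. Insr, Igf1r, Fgfr1 and Fgfr2, for insulin, insulin-like growth factor 1 and fibroblast growth factors, did not pass the test (0.23, -0.20, 0.22 and -0.18 on the log2 scale). Among axon guidance families (semaphorins, plexins, neuropilins, ephrins, netrins and slits), 6 of 52 rose and 15 fell, and leaving out WT replicate 3 or WT replicate 4 left 3 that rose. Nrp1, a co-receptor for semaphorins and vascular endothelial growth factor, was at 62.5, 80.4, 72 and 96.1 CPM in the 12 h libraries, against 164, 157, 150.5 and 137 CPM in WT (log2 fold change -0.97 ± 0.13, adjusted p = 0.000228). Sema4d and Plxnc1, a semaphorin and a semaphorin receptor, fell, with log2 fold changes of -1.46 ± 0.20 and -1.12 ± 0.22.

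**Figure D2:**
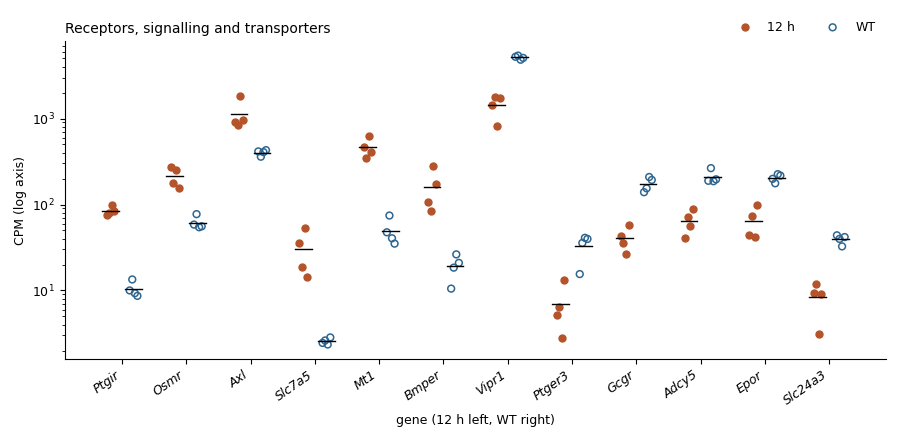
CPM on a log axis of 12 receptor, signalling and transporter genes in each stellate cell library, 4 at 12 h (left, filled) and 4 WT (right, open), with a bar at each group mean. In Ptgir, Osmr, Axl, Slc7a5, Mt1 and Bmper all 12 h libraries sit above all WT libraries, and in Vipr1, Ptger3, Gcgr, Adcy5, Epor and Slc24a3 all sit below them. Genes outside the core list were as a rule named for groups that do not overlap.

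Nuclear receptors fell more often than they rose, 7 lower and 3 higher of 30 tested, or 11 lower without 12 h replicate 2, and 1 higher without WT replicate 3 or 12 h replicate 4. Their share called in either direction, 33.3%, was near the 32% of all genes tested. Esr1, estrogen receptor alpha, was at 54, 75, 23.1 and 58.3 CPM in the 12 h libraries, against 165, 146, 133 and 138 CPM in WT (log2 fold change -1.47 ± 0.25, adjusted p = 0.000826, edgeR QL test). Nr1h4, the bile acid receptor FXR, was at 179, 197, 164 and 185 CPM in the 12 h libraries, against 355, 299.8, 304 and 304 CPM in WT (log2 fold change -0.80 ± 0.13, adjusted p = 0.000678). Its relative Nr1h5, a lanosterol-responsive receptor in mice, fell, with a log2 fold change of -1.38 ± 0.31. Both had every 12 h library under every WT library. Thra, a thyroid hormone receptor, fell (-0.81 ± 0.14), and Nr1h3, the oxysterol receptor LXR alpha, rose (0.54 ± 0.11). Pparg, a receptor linked to the lipid-storing state, was too low to be tested. Hsd11b1, which regenerates active glucocorticoid inside the cell, fell to 474, 369, 296 and 449 CPM in the 12 h libraries, against 844, 807, 962 and 891 CPM in WT (log2 fold change -1.14 ± 0.17, adjusted p = 0.000305), while Fkbp5, a glucocorticoid-induced chaperone of its receptor, rose (1.22 ± 0.23).

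Secreted regulators of growth showed 14 members lower and 7 higher of 41 tested. Igfbp3, the main binding protein of insulin-like growth factors in plasma, was at 876, 1002, 954 and 1425 CPM in the 12 h libraries, against 2163, 3013, 4134 and 4037 CPM in WT (log2 fold change -1.65 ± 0.26, adjusted p = 0.000479, edgeR QL test). Angptl2, an angiopoietin-like protein, was at 588, 743, 239 and 536 CPM in the 12 h libraries, against 1801, 1810.1, 1702 and 1749 CPM in WT (log2 fold change -1.75 ± 0.25, adjusted p = 0.000302). WT values of Angptl2 spanned a narrow range, and 12 h replicate 3 was the lowest of all. Its relative Angptl6 fell, with a log2 fold change of -1.54 ± 0.20, Pdgfd, a ligand of Pdgfrb, of -1.51 ± 0.36, and Fgf12, an intracellular member of the fibroblast growth factor family, of -1.62 ± 0.21. Vegfc, a lymphatic growth factor, rose (0.46 ± 0.13). In the transforming growth factor beta (TGF-beta) group, 14 members fell and 6 rose of 41. The number that fell was 9 without the filter on low counts, 7 to 9 when each WT library was left out in turn, 9 and 7 without 12 h replicates 1 and 3, and 9 without 36 h replicate 1. The member with the largest log2 fold change was Bmper, an extracellular regulator of bone morphogenetic proteins, at 106, 83, 283 and 175 CPM in the 12 h libraries, against 10.5, 18.4, 26.3 and 20.9 CPM in WT (log2 fold change 3.09 ± 0.43, adjusted p = 0.00022). Smad3, the receptor-activated transducer of TGF-beta, was at 105, 128, 120.1 and 127 CPM in the 12 h libraries, against 63.3, 77.1, 54.7 and 64.4 CPM in WT (log2 fold change 0.89 ± 0.12, adjusted p = 0.000183), and the receptor gene Tgfbr1 rose (0.51 ± 0.14). Acvr2a and Acvr2b, type II activin receptors, fell (-0.74 ± 0.19 and -0.96 ± 0.22).

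Wnt pathway genes fell in 13 of 41 tested members and rose in 2, and 8 fell without 12 h replicate 3 and 4 rose without 12 h replicate 4. Those that fell included the ligand gene Wnt5a (-1.11 ± 0.32), Porcn, which lipidates Wnt ligands (-0.93 ± 0.17), the receptor gene Fzd8, at 74.7, 97.3, 51.5 and 114 CPM in the 12 h libraries, against 235, 159, 188 and 199 CPM in WT, and Tle2, a co-repressor (-2.46 ± 0.30). Of the members that rose, Frzb, a secreted Wnt antagonist, was at 388, 386, 854 and 455 CPM in the 12 h libraries, against 163, 209.9, 189.8 and 211 CPM in WT (log2 fold change 1.43 ± 0.23, adjusted p = 0.000612, edgeR QL test). Dkk3, a secreted relative of the Dickkopf antagonists, rose by 1.39 ± 0.29. Rspo3, an enhancer of Wnt signalling with a role in liver zonation, and the ligand gene Wnt4 did not pass the test (-0.30 ± 0.15 and -0.29 ± 0.30). In the Hedgehog group, 5 of 15 fell, or 3 without WT replicate 4, with the ligand gene Dhh at 14.1, 17.7, 26.5 and 32.5 CPM in the 12 h libraries, against 47.7, 49.7, 51.7 and 46.1 CPM in WT (log2 fold change -1.11 ± 0.20, adjusted p = 0.00114) and the co-receptor gene Gas1 lower, with a log2 fold change of -1.23 ± 0.29.

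Solute carriers as a whole were called about as often as all genes, 35.6% against 32%, with 40 of 208 tested members higher and 34 lower, and the classes differed in direction. Among amino acid transporters 6 of 26 rose and 2 fell, and the number that fell was 1 when any library other than WT replicate 2, 12 h replicate 1 or 36 h replicate 2 was left out. Slc7a5, the large neutral amino acid transporter LAT1, was at 36, 19, 52.9 and 14.2 CPM in the 12 h libraries, against 2.46, 2.62, 2.35 and 2.84 CPM in WT (log2 fold change 3.57 ± 0.52, adjusted p = 0.000288, edgeR QL test). It rose 11.8-fold, with 12 h replicates 1 and 3 above replicates 2 and 4. Slc3a2, the heavy chain with which it forms a dimer, rose less (0.75 ± 0.18). Slc1a5, which carries glutamine, was at 64.5, 46.8, 70.9 and 73.9 CPM in the 12 h libraries, against 23, 21.3, 29.7 and 30.6 CPM in WT (log2 fold change 1.29 ± 0.24, adjusted p = 0.0016), and the cationic and neutral carriers Slc7a1 and Slc7a6 rose by 0.51 ± 0.13 and 1.22 ± 0.22. Slc16a1, the lactate and pyruvate carrier MCT1, was at 23.9, 13.8, 16 and 7.33 CPM in the 12 h libraries, against 4.45, 3.83, 4.18 and 6.16 CPM in WT (log2 fold change 1.71 ± 0.31, adjusted p = 0.00139). Slc15a3, a lysosomal carrier of histidine and small peptides, rose to 45, 25.8, 48.8 and 27.4 CPM in the 12 h libraries, against 3.09, 5.18, 3.83 and 5.44 CPM in WT, and no 12 h library came near WT. Slco3a1, an organic anion carrier, was at 1392, 1068, 1314 and 821 CPM in the 12 h libraries, against 299, 368, 327 and 368 CPM in WT (log2 fold change 1.75 ± 0.16, adjusted p = 2.17e-05). Of the carriers that fell, Slc24a3, a potassium-dependent sodium and calcium exchanger, was at 9.24, 11.8, 3.15 and 9.0 CPM in the 12 h libraries, against 43.8, 39.8, 32.6 and 41.8 CPM in WT (log2 fold change -2.25 ± 0.27, adjusted p = 0.000107). Slc2a13, a proton-coupled inositol carrier, fell, with a log2 fold change of -1.87 ± 0.25. The glucose carrier gene Slc2a1 did not pass the test (0.52 ± 0.22, adjusted p = 0.0876), except when 12 h replicate 2 was left out (adjusted p = 0.0349).

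Metal handling was among the most changed transport classes, with 10 of 25 tested zinc, copper and iron genes higher and 4 lower. The metallothioneins, small cysteine-rich proteins that bind zinc and copper, rose in this group. Mt1 was at 470.4, 348, 619.8 and 406 CPM in the 12 h libraries, against 47.5, 74.4, 40.5 and 35.1 CPM in WT, a 9.34-fold rise (adjusted p = 8.49e-06, edgeR QL test). Mt2 rose 22.4-fold, to 274, 199.9, 241 and 162 CPM at 12 h. In both genes all 12 h libraries were several times above all WT libraries. Importers of zinc were among the genes that rose. Slc39a10 was at 62, 53.1, 40.8 and 44.2 CPM in the 12 h libraries, against 20.1, 23.7, 24.5 and 20.1 CPM in WT (log2 fold change 1.18 ± 0.13, adjusted p = 6.95e-05). Slc39a14, which also takes up iron that is not bound to transferrin, was at 58.9, 39.4, 76.6 and 29.7 CPM in the 12 h libraries, against 17.4, 22.3, 24.3 and 21.8 CPM in WT (log2 fold change 1.25 ± 0.24, adjusted p = 0.00161). Slc39a4 rose by 1.47 ± 0.31. Slc39a8, a related importer of zinc and manganese, went against them and fell, with a log2 fold change of -1.30 ± 0.27. Slc11a2, the ferrous iron transporter DMT1, was at 109.7, 74.5, 77.3 and 57.5 CPM in the 12 h libraries, against 30.7, 29.1, 33.4 and 32.5 CPM in WT (log2 fold change 1.34 ± 0.17, adjusted p = 0.00014). Slc40a1, the iron exporter ferroportin, was at 256, 375, 130.3 and 486 CPM in the 12 h libraries, against 863, 605, 621 and 543 CPM in WT (log2 fold change -1.08 ± 0.30, adjusted p = 0.0149). It is also a Kupffer cell marker. Of 11 tested markers of that list 8 fell, Slc40a1 among them and the rest from no more than 6.11 CPM in WT. The part of Kupffer cell RNA in the fall of Slc40a1 was not tested. Slc41a2, a magnesium carrier, rose by 3.0 ± 0.32.

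The promoters of the metallothionein genes are shown because metal-responsive transcription through them is the textbook route to their induction, and the 2 genes are neighbours on chromosome 8. Windows of 280 bases, 250 before to 30 after the RefSeq start, are given 5′ to 3′ on the plus strand (RefSeq, GRCm38.p6). Matches to TGCGCNC, a form of the core of the metal response element, are in capitals on either strand.
Mt1, chr8:94178839-94179118: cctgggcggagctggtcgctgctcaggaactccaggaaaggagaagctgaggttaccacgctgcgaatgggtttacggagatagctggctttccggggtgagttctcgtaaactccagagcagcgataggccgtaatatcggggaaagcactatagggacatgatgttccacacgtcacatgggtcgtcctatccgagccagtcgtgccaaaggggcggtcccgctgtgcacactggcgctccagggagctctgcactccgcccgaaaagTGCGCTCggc
Mt2, chr8:94172368-94172647: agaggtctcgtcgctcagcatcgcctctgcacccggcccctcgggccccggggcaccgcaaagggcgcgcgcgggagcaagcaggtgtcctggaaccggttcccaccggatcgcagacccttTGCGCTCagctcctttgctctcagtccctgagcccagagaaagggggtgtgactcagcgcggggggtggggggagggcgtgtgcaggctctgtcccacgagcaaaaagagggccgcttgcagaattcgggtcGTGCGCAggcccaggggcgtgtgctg
The Mt1 window held 1 match, which begins at position 20 after the RefSeq start. The Mt2 window held 2, of which the first begins 128 bases before the start and the last, on the reverse strand, at position 4 after it. Sequence outside these windows and other forms of the element were not searched, so the counts do not give all its copies in or near either gene. The same letters stood in 2477 of the 9689 promoters found for tested genes, 25.6%, so their presence is a description of these windows.

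ABC transporters had 6 of 39 higher and 9 lower. Abcc9, the sulfonylurea receptor subunit of the ATP-sensitive potassium channel of pericytes, was at 2357, 2275, 908 and 1886 CPM in the 12 h libraries, against 4732, 3646, 3069 and 3251 CPM in WT (log2 fold change -0.98 ± 0.26, adjusted p = 0.0109, edgeR QL test). Replicate 3 had less than any other 12 h library, and the groups did not overlap. Abca9 and Abcg3 fell, with log2 fold changes of -1.70 ± 0.21 and -3.05 ± 0.25. The drug and glutathione conjugate exporters Abcb1b and Abcc1 rose (1.51 ± 0.38 and 0.94 ± 0.18). Among ion channels, 7 of 23 tested potassium channel genes fell and 1 rose, a number that was 0 without WT replicate 3 or 4 and 2 without 36 h replicate 4. Kcnk2 and Kcnk3, background potassium channels that set the resting potential, were lower in each 12 h library. Kcnk3 was at 6.95, 18.6, 12.2 and 27.1 CPM in the 12 h libraries, against 33.7, 51.5, 53.5 and 48 CPM in WT (log2 fold change -1.52 ± 0.30, adjusted p = 0.00221), and Kcnk2 fell, with a log2 fold change of -2.28 ± 0.29. In the group of calcium channels, pumps and sensors, 13 of 33 fell and 3 rose, and 8 fell without 12 h replicate 3. Atp2a3, a calcium pump of the endoplasmic reticulum, was at 36.3, 32.3, 7.47 and 21.2 CPM in the 12 h libraries, against 46.5, 77.1, 73.4 and 67.6 CPM in WT (log2 fold change -1.44 ± 0.34, adjusted p = 0.0057). Stim1, the calcium sensor of the endoplasmic reticulum, and Piezo2, a stretch-activated channel, fell, with log2 fold changes of -0.57 ± 0.14 and -1.01 ± 0.21. Atp2b4, a calcium pump of the plasma membrane, rose to 8.11, 10.7, 17.3 and 10.1 CPM in the 12 h libraries, against 4.25, 3.12, 3.49 and 3.63 CPM in WT (log2 fold change 1.67 ± 0.24, adjusted p = 0.000308). Clic4, an intracellular chloride channel protein, rose to 3784, 2959, 3113 and 2451 CPM in the 12 h libraries, against 1259.8, 1634, 1443 and 1439 CPM in WT (log2 fold change 1.09 ± 0.15, adjusted p = 0.000243).

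Matrix genes split by class. Collagens had 5 of 26 tested members higher and 7 lower, or 3 higher in a fit of the 8 libraries alone. Col8a1, a short-chain network collagen, was at 6.95, 11.7, 2.14 and 4.57 CPM in the 12 h libraries, against 26.1, 37.4, 40.9 and 36.4 CPM in WT (log2 fold change -2.46 ± 0.35, adjusted p = 0.000276, edgeR QL test). Col5a3, a minor fibrillar chain, fell, with a log2 fold change of -1.42 ± 0.23. Col1a2 and Col3a1, chains of the main fibrillar collagens, did not pass the test (-0.30 ± 0.13 and 0.01 ± 0.21), and Col4a2, a basement membrane chain, rose (0.71 ± 0.19). Of 22 basement membrane genes 7 fell and 3 rose, or 5 rose without 12 h replicate 4. Nid2, a nidogen that links laminin to collagen IV, was at 164, 153, 104 and 152 CPM in the 12 h libraries, against 244, 345, 365 and 376 CPM in WT (log2 fold change -1.21 ± 0.16, adjusted p = 0.000169). Nid1 and Pxdn, the other nidogen and the peroxidase that cross-links collagen IV, fell, with log2 fold changes of -0.61 ± 0.12 and -1.0 ± 0.15. All 12 h libraries lay below all WT libraries in each of these 3 genes.

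Small leucine-rich proteoglycans, which organise collagen fibrils, fell in several members, and the large proteoglycan versican rose. Of 13 tested proteoglycans, 6 fell and 1 rose. Vcan, versican, was at 20.6, 16.3, 31.7 and 7.40 CPM in the 12 h libraries, against 0.763, 1.28, 1.52 and 0.344 CPM in WT (log2 fold change 4.30 ± 0.57, adjusted p = 0.000183, edgeR QL test), a 19.7-fold rise from a low level. Ogn, osteoglycin, was at 6.81, 10.4, 2.97 and 3.81 CPM in the 12 h libraries, against 44.6, 23.7, 25.7 and 32.5 CPM in WT (log2 fold change -2.40 ± 0.40, adjusted p = 0.000752). Prelp, an abundant member of the family in these cells, was at 5953, 5433, 4638 and 6514 CPM in the 12 h libraries, against 9395, 9954, 10232 and 11751 CPM in WT (log2 fold change -0.87 ± 0.15, adjusted p = 0.000957). Lum, lumican, fell, with a log2 fold change of -0.70 ± 0.16. Dcn, decorin, was below WT in every 12 h library but did not pass the test (-0.50 ± 0.24, adjusted p = 0.137), except when 36 h replicate 4 was left out (adjusted p = 0.0409). Fbln5, which assembles elastic fibres, was at 131, 146, 74.7 and 173 CPM in the 12 h libraries, against 484, 511, 555 and 609 CPM in WT (log2 fold change -2.04 ± 0.25, adjusted p = 0.000119). Thbs1, thrombospondin 1, an activator of latent TGF-beta, rose to 555, 227, 244 and 135 CPM in the 12 h libraries, against 74.1, 104, 55 and 59 CPM in WT (log2 fold change 1.99 ± 0.37, adjusted p = 0.00156), with replicate 1 highest. Fn1, fibronectin, did not pass the test (0.02 ± 0.23). Of the matrix cross-linking enzymes, Tgm2, tissue transglutaminase, was at 1647, 1721, 1881 and 1773 CPM in the 12 h libraries, against 767, 819, 813 and 736 CPM in WT (log2 fold change 1.16 ± 0.12, adjusted p = 4.2e-05), and the 4 libraries of each group were close together. Loxl2, a lysyl oxidase, rose by 0.80 ± 0.19. Creb3l1, a transcription factor of the secretory pathway that drives collagen genes in bone, rose to 382, 319, 354 and 313 CPM in the 12 h libraries, against 68.5, 81.1, 64.8 and 72.2 CPM in WT (log2 fold change 2.25 ± 0.14, adjusted p = 8.83e-07).

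Genes that break matrix down moved in both directions, 10 higher and 13 lower of 39 tested. Adamts4, an aggrecanase that also cuts versican, was at 167, 67.2, 201 and 89 CPM in the 12 h libraries, against 12.1, 20.7, 15.1 and 23.9 CPM in WT (log2 fold change 2.87 ± 0.40, adjusted p = 0.00022, edgeR QL test). Mmp15 and Mmp17, membrane-type metalloproteinases, fell, with log2 fold changes of -2.39 ± 0.39 and -1.43 ± 0.27. Both were lower in each 12 h library, and without 12 h replicate 4 the change in Mmp15 was -2.99. The inhibitors Timp2 and Reck fell too. Timp2 was at 628, 701, 336 and 563 CPM in the 12 h libraries, against 1321, 1256, 1145 and 1186 CPM in WT (log2 fold change -1.14 ± 0.19, adjusted p = 0.0008), and Reck changed by -1.23 ± 0.18. Cathepsins and cystatins, a list of lysosomal proteases and protease inhibitors, were lower as a class, 10 of 15 tested members falling and 2 rising. Ctso was at 135, 142, 98.7 and 164 CPM in the 12 h libraries, against 266, 275, 305 and 280.4 CPM in WT (log2 fold change -1.06 ± 0.13, adjusted p = 0.000121). Lgmn, legumain, was at 165, 187, 109 and 185 CPM in the 12 h libraries, against 359, 376, 335 and 335 CPM in WT (log2 fold change -1.12 ± 0.15, adjusted p = 0.000169). Ctsd, Ctsl and Ctsf changed by -0.65, -0.67 and -1.14 on the log2 scale. A wider list of autophagy and lysosome genes had 14 of 67 lower and 8 higher, or 5 higher without WT replicate 4 (32.8% called, against 32% of all genes tested, median log2 fold change 0.06). Lysosomal hydrolases that fell included 3 outside that list. Glb1, beta-galactosidase, changed by -1.08 ± 0.12, Siae, which deacetylates sialic acid, by -1.07 ± 0.12, and Naaa, which hydrolyses N-acylethanolamines, by -1.44 ± 0.14. Ctsc, which activates serine proteases, rose (0.90 ± 0.25).

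Integrins were called about as often as all genes tested, 3 of 18 higher and 3 lower, or 5 lower without 12 h replicate 1. Itga8, the integrin chain for nephronectin that marks stellate cells and pericytes, was at 108, 99.2, 32.3 and 58.8 CPM in the 12 h libraries, against 321, 349, 315 and 234 CPM in WT (log2 fold change -2.03 ± 0.30, adjusted p = 0.000367, edgeR QL test). Itga2 and Itga5, for collagen and fibronectin, rose by 2.41 ± 0.44 and 0.74 ± 0.15, and Itga1, another collagen-binding chain, fell, with a log2 fold change of -0.69 ± 0.18. The hyaluronan group had 8 of 17 members higher and 1 lower, and 5 higher without 12 h replicate 3, without WT replicate 1 or in a fit of the 8 libraries alone. Cd44, the main hyaluronan receptor, was at 124, 64.3, 59.9 and 37.3 CPM in the 12 h libraries, against 16.8, 24.5, 26.4 and 18.9 CPM in WT (log2 fold change 1.72 ± 0.33, adjusted p = 0.0016), and Tnfaip6, which modifies hyaluronan, rose by 3.24 ± 0.42. Hyal1, the lysosomal hyaluronidase, fell to 4.20, 4.35, 2.74 and 3.92 CPM in the 12 h libraries, against 14.1, 13.8, 11.3 and 13.4 CPM in WT (log2 fold change -1.79 ± 0.21, adjusted p = 7.9e-05). Among heparan and chondroitin sulfate genes, 9 of 40 rose and 13 fell, and the syndecans diverged. Sdc4, a syndecan of focal adhesions, was at 864, 687, 1199 and 743 CPM in the 12 h libraries, against 179, 197, 197 and 208 CPM in WT (log2 fold change 2.16 ± 0.21, adjusted p = 2.61e-05). Sdc2 was at 134, 131, 84.1 and 133 CPM in the 12 h libraries, against 252, 263, 272 and 255 CPM in WT (log2 fold change -1.11 ± 0.14, adjusted p = 0.00014), and Sdc3 fell, with a log2 fold change of -0.74 ± 0.12. Sulf1, which removes sulfate groups from heparan sulfate outside the cell, was at 36, 20.8, 36.2 and 15.6 CPM in the 12 h libraries, against 4.88, 2.80, 1.90 and 2.97 CPM in WT (log2 fold change 3.11 ± 0.36, adjusted p = 7.59e-05). Chst11, which sulfates chondroitin, rose by 3.22 ± 0.34, and the glypican Gpc4 fell, with a log2 fold change of -0.77 ± 0.13. Cdh4, retinal cadherin, fell to 6.05, 7.71, 3.57 and 5.05 CPM in the 12 h libraries, against 36.5, 34.7, 29.3 and 28.3 CPM in WT (log2 fold change -2.52 ± 0.26, adjusted p = 4.2e-05).

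Contractile and cytoskeletal genes rose in 13 of 42 tested members and fell in 3. The genes that rose were not the classical myofibroblast markers. Csrp2, a LIM protein known from stellate cells and smooth muscle, was at 46, 40.8, 84 and 65 CPM in the 12 h libraries, against 11.4, 19.4, 15.7 and 19.3 CPM in WT (log2 fold change 1.84 ± 0.24, adjusted p = 0.000145, edgeR QL test). Synm, the intermediate filament protein synemin, was at 63.5, 74, 51.9 and 46.5 CPM in the 12 h libraries, against 20.04, 21.6, 11.3 and 21.5 CPM in WT (log2 fold change 1.66 ± 0.22, adjusted p = 0.000189). Its partner desmin, Des, was at 709.6, 738, 871 and 705 CPM in the 12 h libraries, against 471, 578, 474 and 489 CPM in WT, a smaller change of 0.59 ± 0.13. Cnn3 and Pdlim7, actin-associated proteins, rose by 0.86 ± 0.17 and 0.98 ± 0.16, and Actn4, an alpha-actinin, fell, with a log2 fold change of -0.83 ± 0.23. Acta2, alpha smooth muscle actin, was at 22.1, 9.34, 4.84 and 2.54 CPM in the 12 h libraries, against 2.62, 10.5, 3.49 and 8.19 CPM in WT and did not pass the test (0.65 ± 0.60, or -0.15 without 12 h replicate 1). Tagln, transgelin, was at 595, 243, 65.5 and 54.7 CPM in the 12 h libraries, against 52.9, 136, 105 and 119.5 CPM in WT and did not pass it either (1.21 ± 0.60, or 0.23 without 12 h replicate 1), except when 12 h replicate 4 was left out (adjusted p = 0.0437). In both genes 12 h replicate 1 was the highest of the 8 libraries and the groups overlapped.

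**Figure D3:**
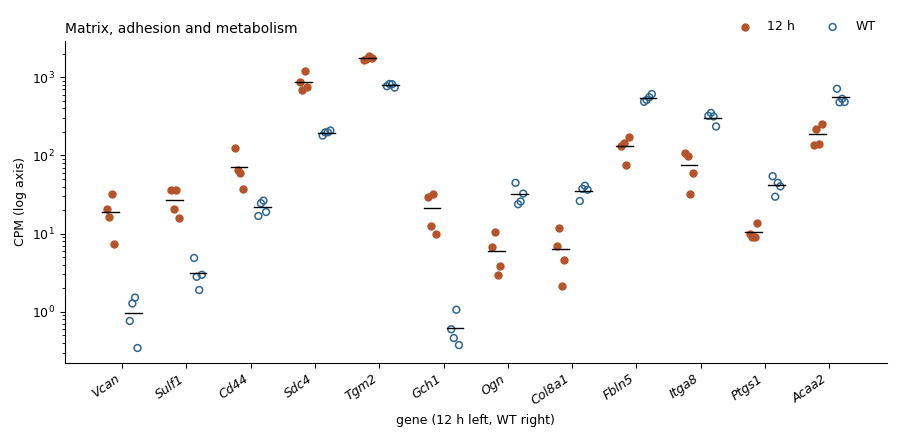
CPM on a log axis of 12 matrix, adhesion and metabolic genes in each stellate cell library, 4 at 12 h (left, filled) and 4 WT (right, open), with a bar at each group mean. Vcan, Sulf1, Cd44, Sdc4, Tgm2 and Gch1 are higher in all 12 h libraries, and Ogn, Col8a1, Fbln5, Itga8, Ptgs1 and Acaa2 are lower in all of them. Genes outside the core list were as a rule named for groups that do not overlap.

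Among metabolic genes, Gch1, the first enzyme of tetrahydrobiopterin synthesis, was at 29.5, 12.3, 32.1 and 9.94 CPM in the 12 h libraries, against 0.597, 0.461, 1.06 and 0.375 CPM in WT (log2 fold change 5.08 ± 0.56, adjusted p = 6.54e-05, edgeR QL test). It rose 33.8-fold, with 12 h replicates 1 and 3 again above 2 and 4. In the polyamine, glutamine, arginine and proline group, 12 of 40 rose and 4 fell. Odc1, the rate-limiting enzyme of polyamine synthesis, was at 90.0, 55.5, 78.4 and 48 CPM in the 12 h libraries, against 28.9, 33.3, 32.3 and 29.8 CPM in WT (log2 fold change 1.13 ± 0.18, adjusted p = 0.000534). Srm, spermidine synthase, was at 139, 91.3, 103 and 50.9 CPM in the 12 h libraries, against 27.5, 36.6, 30.6 and 33.2 CPM in WT (log2 fold change 1.59 ± 0.23, adjusted p = 0.000275). Both were higher in all 12 h libraries. Nucleotide metabolism had 17 of 49 members higher and 6 lower. Cad, which starts pyrimidine synthesis, was at 111, 109.7, 88.6 and 78.8 CPM in the 12 h libraries, against 38.2, 47.5, 36.3 and 43 CPM in WT (log2 fold change 1.23 ± 0.14, adjusted p = 6.57e-05), and Ctps and Pfas, for cytidine and purine synthesis, rose by 1.22 ± 0.26 and 1.28 ± 0.20. Xdh, which makes uric acid, was at 817, 787, 985 and 889.6 CPM in the 12 h libraries, against 337, 382, 305 and 365 CPM in WT (log2 fold change 1.32 ± 0.12, adjusted p = 2.17e-05). Nt5e, the surface enzyme CD73 that makes extracellular adenosine, was at 96, 146, 130.0 and 142 CPM in the 12 h libraries, against 402, 412, 381 and 371 CPM in WT (log2 fold change -1.61 ± 0.14, adjusted p = 1.53e-05). Adk, which removes intracellular adenosine, fell, with a log2 fold change of -0.83 ± 0.11. Serine and folate metabolism had 10 of 32 higher and 2 lower. The number lower was 0 without WT replicate 3 or 4, with no filter and in a fit of the 8 libraries alone, and 1 without WT replicate 1 or 2 or any 12 h library. The mitochondrial folate enzyme gene Mthfd1l was at 14.2, 9.23, 16.6 and 8.93 CPM in the 12 h libraries, against 2.55, 2.52, 2.96 and 3.94 CPM in WT (log2 fold change 2.03 ± 0.23, adjusted p = 6.69e-05). Mthfd2, in the same compartment, rose to 10.1, 6.76, 26.1 and 4.86 CPM at 12 h, against 0.531, 1.56, 1.75 and 1.88 CPM in WT (3.06 ± 0.57), and by 2.35 without 12 h replicate 3, which was far above the rest.

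Glycolysis genes were called about as often as all genes tested, 5 of 29 higher and 4 lower. The number higher was 8 without 12 h replicate 1, and the number lower was 2 without WT replicate 3. Hk2, an inducible hexokinase, was at 10.3, 2.34, 5.59 and 3.85 CPM in the 12 h libraries, against 0.299, 1.38, 0.759 and 1.44 CPM in WT (log2 fold change 2.50 ± 0.56, adjusted p = 0.0045, edgeR QL test). Ldha, lactate dehydrogenase A, was at 593, 623, 1204 and 861 CPM in the 12 h libraries, against 383, 427, 412 and 462 CPM in WT (log2 fold change 0.96 ± 0.20, adjusted p = 0.00287). Oxidative enzymes of the pentose phosphate pathway, which make NADPH, rose. H6pd, the form inside the endoplasmic reticulum, was at 1395, 1614, 1857 and 1913 CPM in the 12 h libraries, against 783, 995, 877 and 931 CPM in WT (log2 fold change 0.92 ± 0.13, adjusted p = 0.000228), and G6pdx and Pgd, the cytosolic forms, rose by 0.71 ± 0.13 and 0.77 ± 0.19. The pathway had 5 of 11 members higher, or 3 without WT replicate 2 or in a fit of the 8 libraries alone. Glycogen genes had 5 of 19 lower and 1 higher, 31.6% called against 32% of all genes tested. Pygm, the muscle-type glycogen phosphorylase, was at 57.8, 73.8, 49.7 and 72.8 CPM in the 12 h libraries, against 124, 175, 152 and 146 CPM in WT (log2 fold change -1.23 ± 0.17, adjusted p = 0.000194), and the liver-type gene Pygl and the glycogen-binding gene Stbd1 fell, with log2 fold changes of -1.62 ± 0.24 and -1.37 ± 0.26. Gys1, glycogen synthase, was the member that rose (0.59 ± 0.13). In the hypoxia group 5 of 26 fell and 1 rose, or 2 rose without 12 h replicate 2, with Mxi1, Ndrg1 and Bnip3 lower, with log2 fold changes of -1.46, -0.91 and -0.65. The share called in this group was 23.1%, against 32% of all genes tested.

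Sterol synthesis and uptake genes rose in 13 of 41 tested members and fell in 2, or in 1 with no filter or without any of WT replicates 1, 3 and 4, 12 h replicates 1, 3 and 4 and 36 h replicates 2 and 4. Mvd, an enzyme of cholesterol synthesis, was at 7.39, 8.96, 9.39 and 6.24 CPM in the 12 h libraries, against 2.95, 3.79, 3.72 and 4.06 CPM in WT (log2 fold change 1.14 ± 0.20, adjusted p = 0.00117, edgeR QL test), and Cyp51, in the same pathway, rose by 1.08 ± 0.23. Cyp27a1, which oxidises cholesterol towards bile acids, was at 22.9, 25.8, 18 and 34 CPM in the 12 h libraries, against 102, 58.4, 65.9 and 67.9 CPM in WT (log2 fold change -1.55 ± 0.24, adjusted p = 0.000412). Fatty acid elongation and activation rose in part. Acsl5, an acyl-CoA synthetase, was at 1024, 922, 767 and 706 CPM in the 12 h libraries, against 307, 367, 348 and 313 CPM in WT (log2 fold change 1.36 ± 0.13, adjusted p = 2.59e-05). Elovl6, an elongase of palmitate, rose by 2.09 ± 0.41, or 1.49 without 12 h replicate 1. Mitochondrial fatty acid oxidation had 7 of 37 members lower and 1 higher, or 11 lower without 12 h replicate 4 and 2 higher without WT replicate 1. Its genes were called less often than all genes tested, 21.6% against 32%. Acaa2, a thiolase that completes each turn of the pathway, was at 137, 215, 140.1 and 254 CPM in the 12 h libraries, against 711, 478, 530.0 and 482 CPM in WT (log2 fold change -1.56 ± 0.20, adjusted p = 0.000145). Acad10, an acyl-CoA dehydrogenase, fell, with a log2 fold change of -1.16 ± 0.28.

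Of 37 sphingolipid genes 12 fell and 5 rose, or 3 rose without 12 h replicate 4 or in a fit of the 8 libraries alone. Smpdl3a and Asah1, a sphingomyelinase-like enzyme and acid ceramidase, fell, with log2 fold changes of -1.39 ± 0.22 and -0.71 ± 0.16. Spns2, which exports sphingosine-1-phosphate, rose to 9.60, 6.55, 13.1 and 8.67 CPM in the 12 h libraries, against 1.86, 2.02, 2.20 and 1.91 CPM in WT (log2 fold change 2.24 ± 0.25, adjusted p = 6.57e-05, edgeR QL test). Phospholipid and eicosanoid genes had 6 of 37 higher and 7 lower (35.1% called, against 32% of all genes tested, median log2 fold change 0.03). Ptgs1, cyclooxygenase 1, was at 9.996, 9.13, 9.01 and 13.8 CPM in the 12 h libraries, against 54.2, 29.6, 44.5 and 40.2 CPM in WT (log2 fold change -2.01 ± 0.20, adjusted p = 2.91e-05). Hpgd, which inactivates prostaglandins, fell, with a log2 fold change of -1.54 ± 0.30, and Pla2g4a, the phospholipase that frees arachidonic acid, rose by 1.23 ± 0.28. The epoxide hydrolase Ephx1 was at 290.2, 307, 204 and 327 CPM in the 12 h libraries, against 756, 709, 722 and 765 CPM in WT (log2 fold change -1.39 ± 0.13, adjusted p = 2.59e-05), and Ephx2 fell, with a log2 fold change of -1.53 ± 0.26. Enpp2, autotaxin, which makes lysophosphatidic acid, fell, with a log2 fold change of -1.22 ± 0.23.

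Vitamin A storage genes were largely without a call. In the retinoid group 3 of 28 tested members rose and 4 fell, and 1 rose without WT replicate 1 or 4. Lrat, which esterifies retinol for storage and marks stellate cells, was at 1533, 2912, 1912 and 3177 CPM in the 12 h libraries, against 3538, 2857, 3832 and 3021 CPM in WT and did not pass the test (-0.47 ± 0.23, adjusted p = 0.134). Plin2, a coat protein of lipid droplets, was at 271 to 390.0 CPM at 12 h, against 340.3 to 371 CPM in WT (-0.06 ± 0.12) and did not pass it either. Groups overlapped in both genes. Rdh10, which begins the oxidation of retinol to retinoic acid, was at 138, 55.9, 149 and 54.5 CPM in the 12 h libraries, against 27, 23.3, 31 and 27.1 CPM in WT (log2 fold change 1.87 ± 0.35, adjusted p = 0.00151, edgeR QL test). Aldh1a1, which completes it, was at 149, 163, 112 and 195 CPM in the 12 h libraries, against 285, 276, 250.3 and 284 CPM in WT (log2 fold change -0.82 ± 0.16, adjusted p = 0.00187). Detoxifying enzymes changed within families. Among glutathione and NRF2-linked genes 15 of 51 rose and 14 fell. Gclc, the rate-limiting step of glutathione synthesis, and the transferase gene Gsto1 rose (1.02 ± 0.18 and 1.27 ± 0.24), while the transferase genes Gsta4, Gstt1 and Gstk1 fell (-2.26, -1.48 and -1.06 on the log2 scale). Nqo1, a standard NRF2 target, was at 2.32, 3.60, 4.62 and 3.34 CPM in the 12 h libraries, against 7.37, 5.53, 5.62 and 6.88 CPM in WT (log2 fold change -0.87 ± 0.23, adjusted p = 0.0105). Aldh2, the mitochondrial acetaldehyde dehydrogenase, was at 891, 894, 562 and 897 CPM in the 12 h libraries, against 1701, 1471, 1448 and 1611 CPM in WT (log2 fold change -0.94 ± 0.16, adjusted p = 0.000725).

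Genes of protein synthesis rose in large shares, nearly all of the ribosomal protein and tRNA synthetase genes, by amounts that differed between the 12 h libraries. Of 81 tested cytosolic ribosomal protein genes 75 rose and 0 fell (median log2 fold change 0.89). Their median log2 ratio to the WT mean was 0.46, 0.56, 1.45 and 0.80 in 12 h replicates 1 to 4, and replicate 3 was the highest 12 h library in 79 of them. Rpl12, of the large subunit, was at 36.6, 37.6, 77.3 and 48.7 CPM in the 12 h libraries, against 17, 19.4, 16.9 and 17.4 CPM in WT (log2 fold change 1.5 ± 0.22, adjusted p = 0.000288, edgeR QL test). Rps2, of the small subunit, was at 246, 264, 645 and 332 CPM in the 12 h libraries, against 139, 147, 144 and 148 CPM in WT (log2 fold change 1.36 ± 0.25, adjusted p = 0.00143). Ribosome biogenesis factors rose in 45 of 75, with a different order of libraries: their medians were 0.96, 0.53, 0.62 and 0.08, highest in replicate 1. Fbl, the nucleolar methyltransferase fibrillarin, was at 96.2, 77.7, 86.6 and 51.4 CPM in the 12 h libraries, against 24.7, 32.8, 24.4 and 30.6 CPM in WT (log2 fold change 1.47 ± 0.19, adjusted p = 0.000156), and Mybbp1a, a nucleolar protein, rose by 1.45 ± 0.26. Of 20 cytosolic tRNA synthetase genes 18 rose, among them Vars for valine, at 201, 152, 153 and 110.2 CPM in the 12 h libraries, against 67.7, 71.1, 59.3 and 71.5 CPM in WT (log2 fold change 1.19 ± 0.15, adjusted p = 0.000124). Translation factors and their regulators had 29 of 62 higher and 4 lower, or 2 lower without WT replicate 3, 12 h replicate 1 or 12 h replicate 3, with the helicase gene Eif4a1 and the elongation factor gene Eif5a higher by 1.13 ± 0.19 and 1.12 ± 0.16. Without 12 h replicate 3, 68 ribosomal protein genes, 40 biogenesis genes, 17 tRNA synthetase genes and 22 translation factor genes rose.

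Protein handling rose with them. 32 of 42 proteasome genes rose and 0 fell, with medians of 0.40, 0.30, 0.95 and 0.48 in 12 h replicates 1 to 4. Psmd14, the deubiquitinating subunit, was at 77.3, 64, 112 and 65 CPM in the 12 h libraries, against 37.5, 40.3, 47 and 41.1 CPM in WT (log2 fold change 0.94 ± 0.19, adjusted p = 0.00257, edgeR QL test). The unfolded protein response and endoplasmic reticulum chaperone group had 22 of 56 higher and 1 lower, a number that was 0 without WT replicate 2 or 3 or 12 h replicate 3, 2 without 12 h replicate 2 and 3 with DESeq2. Ern1, the sensor kinase IRE1 alpha, was at 25.6, 22.9, 31.4 and 25.8 CPM in the 12 h libraries, against 13.7, 12.5, 11 and 13.3 CPM in WT (log2 fold change 1.06 ± 0.12, adjusted p = 7.9e-05), and the translocon gene Sec61a1 rose by 0.77 ± 0.11. Of the integrated stress response genes 15 of 23 rose, including the transcription factor gene Atf4, at 114, 96.8, 156 and 97.8 CPM in the 12 h libraries, against 43.6, 55.7, 39.2 and 46.5 CPM in WT (log2 fold change 1.33 ± 0.19, adjusted p = 0.000272). The group shares Slc7a5, Slc3a2 and Mthfd2 with those above. Mitochondrial genes rose less evenly. 27 of 79 respiratory chain subunit genes rose and 3 fell, and the number higher was 13 without 12 h replicate 3, 16 without 12 h replicate 4, 43 without 12 h replicate 1 and 15 without WT replicate 1. Their library medians were -0.03, 0.08, 0.77 and 0.58, so replicates 1 and 2 lay at the WT level. Mitochondrial ribosomal protein genes rose in 31 of 77, 16 without 12 h replicate 3, 16 to 19 when each WT library was left out and 18 in a fit of the 8 libraries alone.

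Transcript length moved with these groups. Ribosomal protein genes have a median longest transcript of 1094 bases. Over all tested genes with a length, those under 1000 bases (n = 454) had library medians of -0.07, 0.03, 0.62 and 0.48 on the log2 scale in 12 h replicates 1 to 4, and those over 8000 bases (n = 698) had 0.06, 0.08, -0.27 and -0.25. Short transcripts were thus relatively higher, and long ones lower, in 12 h replicates 3 and 4, and not in replicates 1 and 2. In the fit, 33.9% of the short genes rose and 8.15% fell, and 7.45% of the long genes rose and 16.2% fell. The library medians of the tRNA synthetases were 0.84, 0.65, 0.66 and 0.19. The part that length has in the ribosomal, ribosome biogenesis, tRNA synthetase, proteasome, mitochondrial and zinc finger results was not tested.

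**Figure D4:**
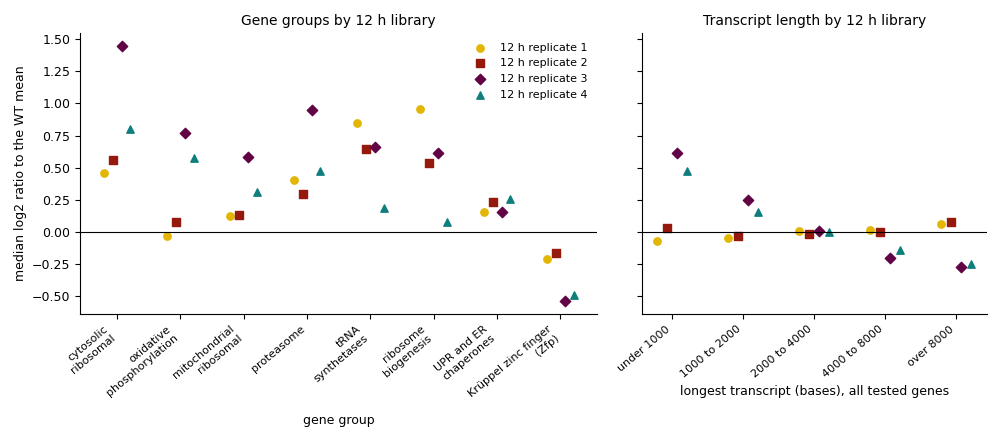
Median log2 ratio of each 12 h stellate cell library (replicates 1 to 4, left to right within a row of points) to the mean of the WT libraries, for 8 gene groups (left panel) and for all tested genes by length of the longest transcript (right panel). Ribosomal protein and respiratory chain genes are highest in replicate 3, ribosome biogenesis genes in replicate 1, and the shortest genes are raised in replicates 3 and 4.

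Krüppel-type zinc finger genes of the Zfp series, mostly transcriptional repressors, fell in 81 of 308 tested members and rose in 4. The number that fell was 53 without 12 h replicate 3 and 51 without WT replicate 3, and the number that rose was 7 without 12 h replicate 4 and 2 without WT replicate 4 or in a fit of the 8 libraries alone. Zfp113 was at 6.19, 8.49, 7.74 and 7.91 CPM in the 12 h libraries, against 15.8, 15.5, 19.8 and 16.9 CPM in WT (log2 fold change -1.16 ± 0.15, adjusted p = 0.000126, edgeR QL test), and no 12 h library reached the WT range. Transcription factors of stellate and mesenchymal cells had 14 of 64 lower and 9 higher, or 5 higher without WT replicate 1. Lhx2, a LIM homeobox factor that in mice keeps stellate cells from becoming activated, was at 234, 261, 179 and 248 CPM in the 12 h libraries, against 539, 429.6, 465 and 450.3 CPM in WT (log2 fold change -1.03 ± 0.16, adjusted p = 0.000427). Hand2 and Zeb2, also factors of this lineage, fell, with log2 fold changes of -0.76 ± 0.16 and -0.73 ± 0.18, and Gata4 did not pass the test (-0.18 ± 0.14). Cdkn1c, the cell cycle inhibitor p57, was at 5.47, 7.16, 4.06 and 12.1 CPM in the 12 h libraries, against 35.7, 24, 38.2 and 39.2 CPM in WT (log2 fold change -2.25 ± 0.33, adjusted p = 0.000301). Splicing factors had 17 of 73 higher and 5 lower, or 3 lower without 12 h replicate 3, WT replicate 2 or WT replicate 3. They were called about as often as all genes tested, 30.1% against 32%. Ptbp1, which represses alternative exons, rose by 0.89 ± 0.13. Celf2, a muscle and brain splicing regulator, was at 19.8, 22.7, 15.5 and 18.2 CPM in the 12 h libraries, against 53.4, 47.9, 49.1 and 42.2 CPM in WT (log2 fold change -1.34 ± 0.14, adjusted p = 3.92e-05).

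Interferon-stimulated genes rose in 40 of 47 tested members. Of the antigen processing genes, 12 of 21 immunoproteasome and MHC class I genes rose and 0 fell. Psme1, a subunit of the interferon-inducible proteasome activator, was at 208, 197, 351 and 239 CPM in the 12 h libraries, against 85.1, 100.1, 91.3 and 97.4 CPM in WT (log2 fold change 1.41 ± 0.19, adjusted p = 0.000189, edgeR QL test). Its partner gene Psme2 was at 249, 224, 305 and 219.6 CPM in the 12 h libraries, against 68.9, 89.4, 89.5 and 90.4 CPM in WT (log2 fold change 1.56 ± 0.18, adjusted p = 6.86e-05). Isg15, a ubiquitin-like modifier, was at 235, 183, 611 and 324 CPM in the 12 h libraries, against 41.2, 85, 52.3 and 87 CPM in WT (log2 fold change 2.35 ± 0.40, adjusted p = 0.000896). All 12 h libraries were above all WT libraries in these 3 genes. The promoters of Psme1 and Isg15 are shown for the letters that interferon-regulated factors read. Matches to the core of the interferon-stimulated response element, GAAANNGAA, are in capitals on either strand of the 280-base windows (RefSeq, GRCm38.p6), with Psme1 read on the plus and Isg15 on the minus strand.
Psme1, chr14:55578244-55578523: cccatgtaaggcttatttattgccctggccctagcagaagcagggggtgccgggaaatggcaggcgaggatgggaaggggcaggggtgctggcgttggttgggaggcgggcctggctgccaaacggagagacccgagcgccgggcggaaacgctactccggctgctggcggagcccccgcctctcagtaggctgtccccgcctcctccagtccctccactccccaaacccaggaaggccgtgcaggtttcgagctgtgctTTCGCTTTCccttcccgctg
Isg15, chr4:156200789-156201068: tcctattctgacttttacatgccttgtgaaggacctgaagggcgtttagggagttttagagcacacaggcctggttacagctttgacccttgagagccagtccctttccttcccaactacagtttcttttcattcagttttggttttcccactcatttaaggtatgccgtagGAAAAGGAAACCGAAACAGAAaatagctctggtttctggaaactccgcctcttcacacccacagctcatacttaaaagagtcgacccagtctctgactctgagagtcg
The motif stood in 22 of the 33 interferon-stimulated genes for which a promoter was found, 66.7%, and in 675 of 9689 promoters of tested genes, 6.97%. The match in Psme1 lies just after the start, and the 3 overlapping matches in Isg15 lie between 78 and 58 bases before it.

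Genes in none of the groups were taken by their adjusted p. Those that rose included Maff, a small MAF transcription factor, at 33.7, 27.3, 42.1 and 25.8 CPM in the 12 h libraries, against 3.48, 7.09, 3.23 and 3.94 CPM in WT (log2 fold change 2.86 ± 0.27, adjusted p = 2.28e-05, edgeR QL test), Arid5a, an RNA-binding protein that stabilises inflammatory transcripts, and Nod1, an intracellular sensor of peptidoglycan. Arid5a rose by 2.95 ± 0.22 and Nod1 by 2.20 ± 0.21. Tnip1, a partner of A20 that restrains NF-kappaB, and Rhbdf2, which controls shedding by ADAM17, rose by 1.79 ± 0.17 and 1.94 ± 0.19. Ipo4, an importer of nuclear proteins, was at 169, 132, 139 and 113 CPM in the 12 h libraries, against 40.8, 48.7, 43.2 and 59.6 CPM in WT (log2 fold change 1.52 ± 0.15, adjusted p = 2.59e-05). Among those that fell, Aard was at 60.4, 83, 58.1 and 91.1 CPM in the 12 h libraries, against 209.7, 286, 274 and 264 CPM in WT (log2 fold change -1.82 ± 0.16, adjusted p = 2.12e-05). Mapt, the microtubule protein tau, was at 30.3, 41.4, 29.9 and 37.2 CPM in the 12 h libraries, against 114, 135, 112 and 131 CPM in WT (log2 fold change -1.82 ± 0.17, adjusted p = 2.59e-05). Gulp1, an adaptor for the engulfment of apoptotic cells, fell, with a log2 fold change of -1.90 ± 0.20, Islr, a marker of mesenchymal stromal cells, of -1.77 ± 0.20, and Dmpk, a kinase of muscle cells, of -1.41 ± 0.16. In each of the genes named here the 12 h and WT libraries did not overlap, which was a condition for naming them.

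The response of stellate cells was set against that of LSECs at the same time, by testing the difference between both responses in 1 fit of 16 libraries. Of 13194 genes tested, 380 (2.88%) differed, 182 (1.38%) with the stellate cell response higher and 198 (1.5%) with it lower. DESeq2 called 753, and leaving out 1 library at a time gave 236 to 407, with the low end from WT replicates 2, 3 and 4 of stellate cells and 1 and 3 of LSECs (236 to 252). Slc7a5 averaged 31 ± 17.9 CPM at 12 h and 2.63 ± 0.233 CPM in WT in stellate cells, against 156 ± 26.7 CPM at 12 h and 166 ± 36.8 CPM in WT in LSECs (SD, n = 4 each). The responses differed by 3.64 ± 0.44 on the log2 scale (adjusted p = 0.00022, edgeR QL test). Gch1 averaged 21.3 ± 11.5 CPM at 12 h and 0.638 ± 0.315 CPM in WT in stellate cells, and 43.4 ± 10.6 and 35.8 ± 2.46 CPM in LSECs (difference 4.79 ± 0.51, adjusted p = 6.69e-05). Sulf1 averaged 27.6 ± 10.5 and 3.20 ± 1.25 CPM in stellate cells at 12 h and in WT, and 0.663 ± 0.404 and 1.37 ± 0.424 CPM in LSECs (difference 4.14 ± 0.58, adjusted p = 0.000762). Serpina3f, a serpin gene of the Serpina3 cluster, whose paralogs are near-identical so that reads may be split between them, averaged 417 ± 227 and 22.6 ± 4.79 CPM in stellate cells at 12 h and in WT, and 309.7 ± 122 and 161 ± 31.6 CPM in LSECs (difference 3.26 ± 0.49, adjusted p = 0.0014).

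Lower responses in stellate cells were found for 4 genes named by the same rule. Abcc9 averaged 1889.7 ± 663 CPM at 12 h and 3753 ± 726 CPM in WT in stellate cells, against 277 ± 165 CPM at 12 h and 53.3 ± 9.95 CPM in WT in LSECs (difference -3.37 ± 0.50, adjusted p = 0.00132, edgeR QL test). Cdh4 averaged 5.69 ± 1.73 and 32.9 ± 3.83 CPM in stellate cells at 12 h and in WT, and 80.9 ± 23.1 and 44.1 ± 9.19 CPM in LSECs (difference -3.40 ± 0.32, adjusted p = 2.88e-05). In LSECs the means of Abcc9 and Cdh4 were above WT at 12 h, so in these genes the cell types moved in opposite directions. Nt5e and Plxnb1, a semaphorin receptor, differed by -3.22 ± 0.58 and -3.49 ± 0.58 (adjusted p = 0.0054 and 0.00295). Without LSEC 12 h replicate 3 the difference in Nt5e was -2.53, still larger than its fall in stellate cells given above. Both genes averaged below 1 CPM in WT LSECs, at 0.441 ± 0.279 and 0.118 ± 0.0790 CPM.

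**Figure D5:**
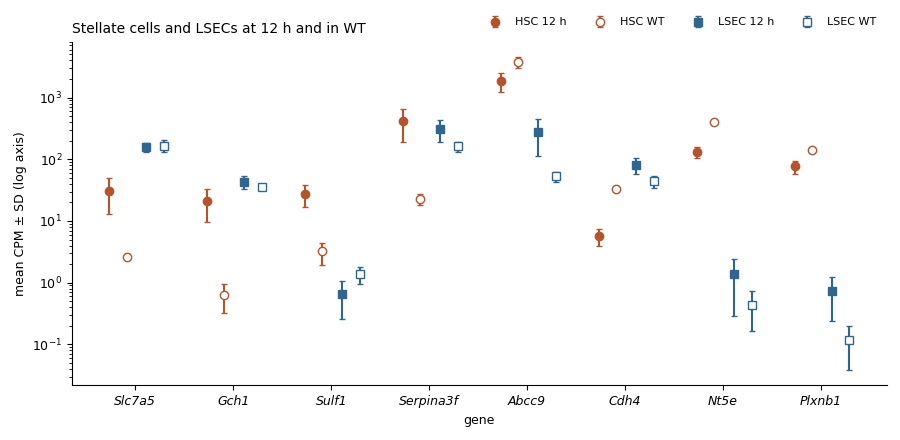
Mean CPM with SD (n = 4 each, log axis) of 8 genes whose 12 h response differed between stellate cells (HSC) and sinusoidal endothelial cells (LSEC), 12 h left of WT within each cell type. Slc7a5, Gch1, Sulf1 and Serpina3f rise in stellate cells, and Abcc9, Cdh4, Nt5e and Plxnb1 fall in stellate cells. The LSEC means of Slc7a5 and Sulf1 are lower at 12 h than in WT, and those of Gch1 and Serpina3f are higher by a smaller factor than in stellate cells. The LSEC means of Abcc9 and Cdh4 are higher at 12 h than in WT.

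At 36 h, 10 of the genes above, chosen after their values were seen, had the following ranges, which were not tested. Ptgir was at 15.1 to 26.8 CPM, Slc7a5 at 1.23 to 6.23 CPM, Mt1 at 51.6 to 76.4 CPM, Gch1 at 0.810 to 4.31 CPM and Sulf1 at 3.15 to 8.0 CPM over the 4 libraries. Of the genes that had fallen, Vipr1 was at 2589 to 5345 CPM, Epor at 147 to 181 CPM, Angptl2 at 1411 to 1971 CPM, Itga8 at 188 to 317 CPM and Fbln5 at 308 to 667 CPM. In none of these 10 genes did a 36 h library fall within the range of the 12 h libraries. All 4 libraries of Ptgir at 36 h lay between the 12 h and the WT range, while Slc7a5 lay above WT in a pair of 36 h libraries and below it in the other pair. These 10 genes do not stand for all genes. Interferon-stimulated genes summed to 6640 to 13630 CPM at 36 h, against 9169 to 16910 CPM at 12 h and 4478 to 5905 CPM in WT. Cytosolic ribosomal protein genes summed to 5001 to 5980 CPM at 36 h, against 6950 to 13323 CPM at 12 h and 4782 to 5250 CPM in WT.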

How the data were processed

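Bulk RNA sequencing libraries of mouse liver cell populations were deposited as raw counts per gene symbol, 1 table per library. Per the submitters' processing notes, FastQC 0.11.4, Trimmomatic 0.35, TopHat2 2.1.0 and SAMtools 0.1.18 were used with mm10, and no source used here names the counting tool, strand setting or annotation. Lines that name no gene were left out. Reads with no feature were 6.084% to 7.147% in the 12 h libraries and 6.662% to 6.996% in WT. The groups come from the sample titles.

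The counts as deposited by the authors were tested in R 4.3.3 with edgeR 4.0.16 (limma 3.58.1), using TMM scaling, filterByExpr by group and the quasi-likelihood test, with Benjamini-Hochberg adjustment over all genes tested. The 12 stellate cell libraries shared 1 fit, and the difference from LSECs used 16 libraries. CPM are on TMM-scaled library sizes. No pair of libraries within a group was identical. On simulated counts with 12551 genes, the stellate cell test recovered 25.4% of genes changed 1.5-fold, 62.7% of those changed 2-fold and 87.7% of those changed 4-fold, and 3.33% of its calls were false. A far smaller share of genes was changed in the simulation than was called in the data, so these rates may differ here. Alternatives were RLE scaling, no filter, DESeq2 1.42.0, only the 8 libraries compared, a replicate block and leaving out each library.

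The gene lists were chosen with earlier results of these data known, so they are described by counts and medians with no test of the list. Genes were named from called members whose groups do not overlap and whose higher group averages at least 5 CPM, up to 6 per list and direction by fold size. A core list was named whether called or not, and a few genes that the rule names are not reported here. Of genes in no list, the 12 with the smallest adjusted p in each direction and at least 20 CPM could be named, and of the response difference the 4 largest each way. Any other gene was chosen after its values were seen. Promoter sequences are RefSeq's, and motifs were searched on both strands in 280 bases.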

Additional observations from a re-analysis of the deposited data

Results flagged for a closer look

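Of 546 sets of 4 libraries examined for the genes and marker sums described, 34 (6.23%) held a library far from the other 3, by a gap above 0.83 of the whole range. Chance gives such a gap in about 1 of 20 sets.

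At 12 h, 15 sets did so, 10 of them through replicate 3. Replicate 3 was apart in the cathepsin genes Ctsc, at 663 CPM, and Ctsl, at 355 CPM, and in Aldh2, at 562 CPM, Gstk1, at 8.67 CPM, and Sdc2, at 84.1 CPM. It was also apart in Axl, at 1835 CPM, in the Wnt inhibitor gene Frzb, at 854 CPM, and in the lymphocyte marker sum, at 1.01 CPM, as well as in the fibrinogen gene Fgg, at 81.6 CPM, and in Ccr2, at 0.0751 CPM. Replicate 4 was apart in Ctsf, at 38.5 CPM, and in the cholangiocyte marker sum, at 0.436 CPM. Acvr2b, at 3.29 CPM, and Il27ra, at 43.8 CPM, stood apart in replicate 2, and Adk, at 40.3 CPM, in replicate 1.

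In WT, 19 sets did so. Replicate 1 was apart in Abca9, at 84.8 CPM, Acvr2b, at 7.57 CPM, Loxl2, at 127 CPM, and Nid1, at 1288 CPM. It was also apart in Nr1h4, at 355 CPM, Psme2, at 68.9 CPM, and Sec61a1, at 335 CPM. Replicate 2 was apart in Adcy5, at 265 CPM, Bnip3, at 24.4 CPM, Des, at 578 CPM, and Ednrb, at 2397 CPM. It was also apart in Pde5a, at 47.9 CPM, Rpl12, at 19.4 CPM, Tgfbr1, at 67.7 CPM, and the sum of immediate early and heat shock genes, at 14688 CPM. Stim1, at 283 CPM, Synm, at 11.3 CPM, and Lyz2, at 6.23 CPM, stood apart in replicate 3, and Pfas, at 5.56 CPM, in replicate 4.

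By edgeR's test of the difference itself, the 12 h response in stellate cells was higher than that in LSECs by a log2 difference of 3.64 for Slc7a5, 4.79 for Gch1, 4.14 for Sulf1 and 3.26 for Serpina3f. It was lower, with log2 differences of -3.37 for Abcc9, -3.40 for Cdh4, -3.22 for Nt5e and -3.49 for Plxnb1.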

How the results depend on the processing

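The 4060 genes called between 12 h and WT stellate cells, 2150 higher and 1910 lower, became 4056 with RLE scaling, 3831 with no filter, 4512 with DESeq2 and 3318 with only the 8 libraries compared. Leaving out 1 library at a time gave 3146 to 4064, with 1723 to 2177 higher and 1423 to 1889 lower. With the replicate block 4298 were called, 2266 higher and 2032 lower. The labels do not say that a number pairs samples, and deviations of same-numbered 12 h and WT libraries correlated at 0.0954, 0.0196, 0.15 and 0.123, with only number 4 correlating best with its own. All 230 called stellate cell genes described above kept their direction under each of these alternatives. All but Lyz2, which lost its call when any of 4 libraries was left out (log2 fold change -1.93 to -1.10 over all the libraries left out in turn), also kept their call. Outside the core list, the naming rule required groups without overlap and ranked genes by fold or adjusted p. That these genes kept their calls was thus largely set by how they were chosen.

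Among the 20 described genes that were not called, the log2 fold change of Col3a1 was -0.0025 with the 8 libraries compared and -0.017 with the replicate block, and that of Fn1 -0.038 with the block. Leaving out 1 library gave -0.13 to 0.13 for Col3a1, -0.17 to 0.19 for Fn1, -0.15 to 1.02 for Acta2 and -0.13 to 0.038 for Plin2. Of 96 counts of called list members of 5 or more, 26 moved by over 1.5 times under at least 1 alternative, as did 32 of 78 smaller counts. The cause was not tested.

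The response difference between stellate cells and LSECs depended most on the tool. DESeq2 called 753 genes, 308 higher and 445 lower, against 380 (182 and 198) with edgeR, while RLE scaling gave 370, no filter 344 and the replicate block 489 (240 and 249). Leaving out 1 library gave 236 to 407 in all, 110 to 199 higher and 125 to 221 lower. The 8 genes named for this difference kept direction and call under each alternative, which their choice as the largest in each direction makes likely. On simulated counts this test recovered 4.55% of 1.5-fold and 40.6% of 2-fold differences.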
